A study of Drosophila melanogaster with 39 samples.

Results

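Divergent gene pair promoters are stretches of DNA that lie between 2 genes transcribed away from each other, so that 1 short gap holds the starts of both. In the dm6 assembly, with the gene models of Ensembl, 1683 pairs of neighbouring protein-coding genes lay head to head on opposite strands with their 5′ ends at most 500 bp apart. After 86 pairs with a cytoplasmic or mitochondrial ribosomal protein gene were left out, 1597 pairs remained. Each region was the gap plus 250 bp to each side, and these 1597 regions were compared with 8227 single promoters, out of 12371 promoter regions of protein-coding genes in all. A single promoter had no 5′ end of another protein-coding gene within 1000 bp. It was given the median width of the divergent regions, 744 bp. The divergent pairs held 3194 of 13968 protein-coding genes (22.9%), and their gaps had a median of 244 bp (quartiles 121 and 334 bp).

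The occupancy data were ChIP-seq peak lists from Kc167 cells, an established Drosophila line of blood cell type. All cells were transfected with double-stranded RNA (dsRNA) and grown for 4 days, with the dsRNA directed against mcherry, a sequence foreign to the fly, in the control, or against eff or cul4. CP190, Su(Hw) and Cul4 (rabbit antibody) were recovered in control, eff-depleted and cul4-depleted cells, and a mouse antibody against Cul4 was used in control cells, which made 10 groups of 3 libraries labelled as biological replicates. The study asked whether Effete (Eff) and Cul4 act on the recruitment of insulator proteins to chromatin, and no library for Eff itself was analysed here. Peak lists hold neither the extent of the knockdowns nor markers of the cell type, so neither was checked, and p-values measure only the spread between these libraries.

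In the compact fly genome many housekeeping genes sit head to head and share a nucleosome-poor gap. Sequence-specific factors such as M1BP, DREF and BEAF-32 bind there, and the last 2 recognise nearly the same letters. CP190 is a zinc-finger and BTB-domain protein that is brought to DNA by such partners and by Su(Hw), the protein that binds the gypsy insulator. Cul4 holds together the subunits of a group of ubiquitin ligases. Eff is a ubiquitin-conjugating enzyme, which needs a ligase to pass ubiquitin to target proteins.

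Gaps of 8 pairs are printed to show the DNA between the 2 starts and the places of 2 core promoter motifs. Capitals mark a match to TATCGATA, the DRE (read by DREF and BEAF-32), or to GTGTGACC, the M1BP motif (GGTCACAC when it lies on the other strand), and the remaining letters are in lower case. All are 5′ to 3′ on the plus strand of dm6, and the gene left of the stroke is the minus-strand gene. Pldn/CG14135 and Secp43/ND-B8 had the strongest CP190 calls, CG32638/CG15717 had the strongest Cul4 call, eff/jvl, slmb/CG5793 and Hmt4-20/SkpA hold genes of the ubiquitin pathway, and CG17162/su(f) and Top3beta/wuho changed in the knockdowns. Their gaps are, in the order of the lines, chr3L:11691400-11691570, chr2L:4454454-4454625, chrX:13128795-13128951, chr3R:14741320-14741581, chr3R:21127486-21127572, chrX:656034-656113, chrX:23096736-23096770 and chrX:6287991-6288099.
Pldn/CG14135: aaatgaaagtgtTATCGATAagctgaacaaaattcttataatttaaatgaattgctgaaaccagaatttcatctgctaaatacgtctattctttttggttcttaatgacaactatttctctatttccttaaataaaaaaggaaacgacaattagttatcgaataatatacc
Secp43/ND-B8: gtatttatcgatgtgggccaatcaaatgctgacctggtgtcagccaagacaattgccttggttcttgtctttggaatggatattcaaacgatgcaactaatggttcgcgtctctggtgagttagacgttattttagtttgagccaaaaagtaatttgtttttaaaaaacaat
CG32638/CG15717: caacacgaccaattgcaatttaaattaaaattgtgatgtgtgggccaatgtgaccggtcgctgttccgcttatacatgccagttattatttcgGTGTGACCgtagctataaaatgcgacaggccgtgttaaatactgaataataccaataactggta
eff/jvl: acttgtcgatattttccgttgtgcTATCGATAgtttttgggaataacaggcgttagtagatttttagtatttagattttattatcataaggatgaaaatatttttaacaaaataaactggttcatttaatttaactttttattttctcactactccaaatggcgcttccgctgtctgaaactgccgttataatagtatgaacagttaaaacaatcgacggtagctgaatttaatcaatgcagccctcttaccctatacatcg
slmb/CG5793: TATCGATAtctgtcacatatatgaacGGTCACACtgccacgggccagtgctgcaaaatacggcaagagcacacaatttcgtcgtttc
Hmt4-20/SkpA: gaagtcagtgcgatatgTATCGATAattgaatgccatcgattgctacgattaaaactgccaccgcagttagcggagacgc
CG17162/su(f): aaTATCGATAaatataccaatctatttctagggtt
Top3beta/wuho: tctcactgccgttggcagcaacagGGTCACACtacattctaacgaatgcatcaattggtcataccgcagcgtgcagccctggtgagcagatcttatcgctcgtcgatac
The gap of slmb/CG5793 held both motifs within its 87 bp, and that of CG17162/su(f) held a DRE in only 35 bp. Those of Pldn/CG14135 and Secp43/ND-B8, of almost equal length, differed in that the first held a DRE and the second neither motif.

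To ask how often each protein was found at divergent promoters, a region was counted as called in a library when a peak covered at least 1 bp of it. CP190 was found at most divergent promoters in control cells. The 3 CP190 control libraries called 83.7%, 69.5% and 82.7% of the divergent regions against 29.9%, 24.2% and 29.3% of the single promoters. Rabbit Cul4 was found at many divergent regions, with 51.3%, 53.5% and 46.4% called against 18.1%, 21.1% and 18.1% of single promoters. The groups did not overlap for either protein. Su(Hw) went the other way, with a mean of 1.44% ± 0.11 of divergent regions (SD, n = 3) and 4.11% ± 0.19 of single promoters. The mouse Cul4 antibody called 1.34% ± 0.096 and 3.32% ± 0.27 (SD, n = 3).

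Over the 9 libraries of each protein in the 3 treatments, divergent regions exceeded single promoters by 50.2 percentage points for CP190 (higher in 9 of 9 libraries, two-sided exact sign-flip permutation test, p = 0.0039, adjusted over 4 antibodies p = 0.0078). For Su(Hw) they were lower by 2.44 points (mean difference -2.44, lower in all 9 libraries, exact permutation p = 0.0039, the smallest that 9 libraries allow). For rabbit Cul4 the mean difference was 18.5 points (7 of 9 libraries, exact permutation p = 0.0156, adjusted p = 0.0208). When every list of a protein was shortened to its strongest peaks so that all had the length of the shortest, the CP190 difference was 40.4 points (exact permutation p = 0.0039), but that of Cul4 was 0.21 points (exact permutation p = 0.34) with 424 peaks in each list. The call for Cul4 therefore held for the lists as deposited and not for the 424 strongest peaks of each. For the mouse antibody the difference was -1.98 points, and 3 libraries cannot go below an exact permutation p of 0.25.

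**Figure D1:**
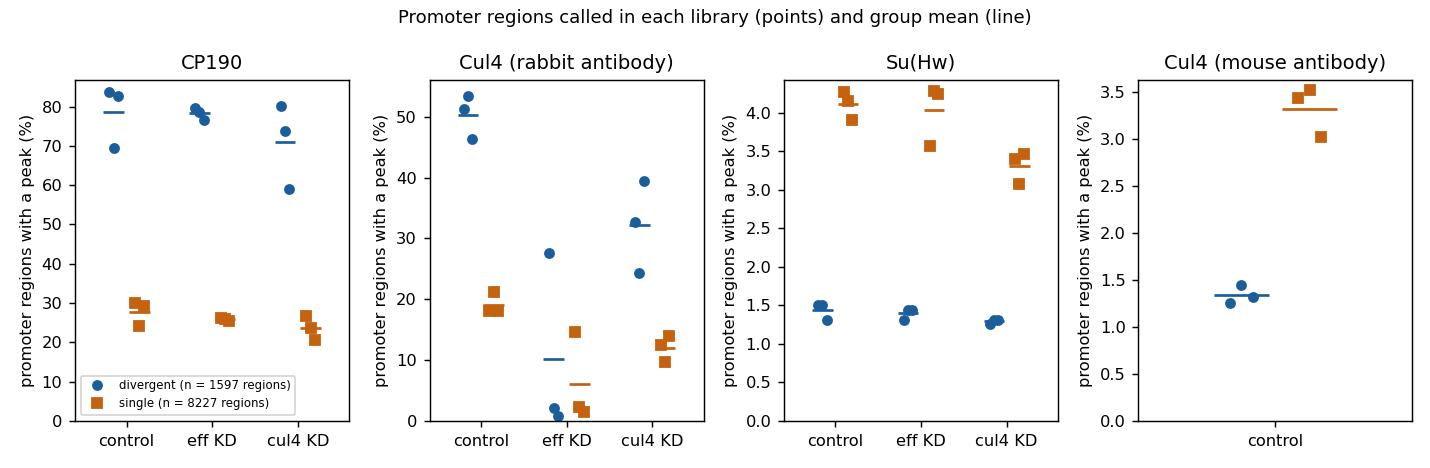
Percent of divergent regions (blue circles, n = 1597) and single promoters (orange squares, n = 8227) with a peak in each of the 30 libraries, by protein and treatment, with a line at the mean of 3 libraries. CP190 and rabbit Cul4 in control cells lie far above the single promoters (78.6% against 27.8% and 50.4% against 19.1%), while Su(Hw) and mouse Cul4 lie below them.

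Single promoters differ in how much free sequence lies upstream, so those in compact surroundings (2193 regions with the upstream neighbour within 500 bp) were looked at separately. They were called by CP190 in 44.5% ± 4.9 and by rabbit Cul4 in 26.4% ± 2.8 (SD, n = 3 control libraries), between the other single promoters and the divergent ones. Over 9 libraries, divergent regions were still 34.3 points above compact single promoters for CP190 (exact permutation p = 0.0039) and 14.6 points above for Cul4 (8 of 9 libraries, exact permutation p = 0.0078). Pairs just beyond the limit, 510 with gaps over 500 and up to 1000 bp, were called by CP190 in 67.6% ± 5.3 and by Cul4 in 49.7% ± 3.1. For Cul4 the divergent regions and these wide pairs differed by -2.50 points over 9 libraries (exact permutation p = 0.082). Cul4 occupancy was thus high at head-to-head pairs on both sides of the limit, while CP190 was 11.8 points higher inside it (9 of 9 libraries, exact permutation p = 0.0039). The regions of the wide pairs are also wider, and the part of width in these comparisons was not tested.

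Calls shared by all 3 control libraries were used to ask whether Cul4 and CP190 met at the same pairs. CP190 was called in all 3 control libraries at 1110 divergent regions (69.5%), against 35.5% of all promoter regions. At promoters, every call of CP190 control replicate 2 was also a call of replicates 1 and 3, so these 1110 are the calls of that library. Rabbit Cul4 was called at 658 divergent regions (41.2%), against 22.8% of all promoter regions. Su(Hw) was called at 21 (1.31%), against 3.4% of all, and mouse Cul4 at 19 (1.19%), against 2.87% of all.

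Cul4 without CP190 was rare at divergent promoters. Both proteins were called at 626 regions (39.2%), CP190 without Cul4 at 484 (30.3%), Cul4 without CP190 at 32 (2.00%) and neither at 455 (28.5%). Of the regions with Cul4, 95.1% also had CP190, and of those with CP190, 56.4% also had Cul4. At single promoters the same shares were 70.2% and 46.5%, and neither protein was called at 71.0% of them. The shares were 83.8% and 46.3% at compact single promoters, and 92.5% and 66.9% at the wide pairs. A high share of Cul4 regions with CP190 was thus not particular to the divergent regions. All 21 Su(Hw) regions had CP190 and 7 had Cul4, against 376 and 74 of the 420 Su(Hw) regions among all promoter regions. All 19 mouse Cul4 regions had CP190, as did all 355 among all promoter regions. A rabbit Cul4 call was found at 13 of the 19, against 228 of the 355.

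The 2 proteins sat at different places within a pair. CP190 summits lay in the gap in 80.3% of cases (mean of 3 control libraries), at a median of 52.5 bp from its centre, and 87.9% of the CP190 peaks covered both 5′ ends. Rabbit Cul4 summits lay in the gap in 38.4%, at a median of 139 bp from the centre, and 54.2% of its peaks covered both 5′ ends. The same was seen over single promoters, where 87.9% of CP190 summits but 32.8% of Cul4 summits lay upstream of the 5′ end. Compared with CP190, Cul4 summits were therefore more often inside the genes. At divergent regions the gap made up a mean of 30.4% of the region for CP190 summits and 31.2% for Cul4 summits. The share of CP190 summits in the gap was thus far above this, and that of Cul4 summits only slightly above it.

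**Figure D2:**
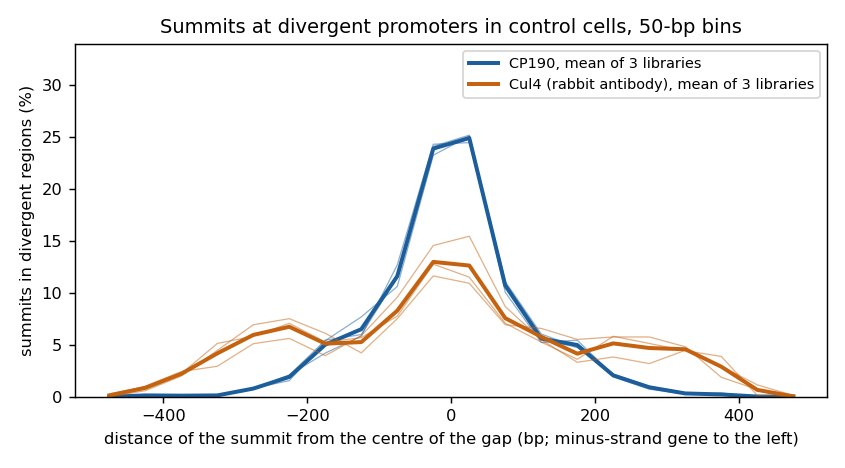
Percent of summits in divergent regions by distance from the centre of the gap (bp, 50-bp bins), in 3 control libraries (thin lines) and their mean (thick lines), with the minus-strand gene to the left. CP190 forms 1 narrow peak over the centre (median distance 52.5 bp), while rabbit Cul4 has a lower centre and a shoulder on each side (median distance 139 bp).

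The place of the summit was more stable between libraries for CP190 than for Cul4. Of the 1110 CP190 regions, the summit was in the same element (gap, left gene or right gene) in all 3 control libraries in 981 (88.4%), which was the gap in 811 and 1 of the genes in 170. Of the 658 Cul4 regions it was the same in 433 (65.8%), the gap in 144 and 1 gene in 289 (159 the left gene and 130 the right), while the libraries differed in 225. In the 626 regions with both proteins, the summits were a median of 88 bp apart (quartiles 29.2 and 242 bp), 231 pairs (36.9%) were within 50 bp, and the Cul4 summit was farther from the centre in 490 (78.3%). A Cul4 summit in a gene with a CP190 summit in the gap was found in 162 regions, and the reverse in 3. The mouse Cul4 summits, few as they were, lay in the gap in 92.7%. Within each list, divergent regions held weaker peaks than single promoters, at a median percentile of fold of 36.4 against 56.0 for CP190 and 41.6 against 56.6 for rabbit Cul4.

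Occupancy was then followed across the length of the gap. CP190 in control cells was called at 81.2%, 67.3%, 79.7%, 81.0% and 84.7% of pairs with gaps of 0 to 99, 100 to 199, 200 to 299, 300 to 399 and 400 to 500 bp, with the lowest mean in the second of these, although replicate 2 made the libraries of neighbouring bins overlap. Cul4 was called at 51.7%, 38.3%, 49.5%, 55.5% and 59.7% of the same bins, also lowest in the second and highest in the last, and its 3 control libraries did not overlap between the second bin and its neighbours. Su(Hw) was called more often in longer gaps, from 0.41% of the shortest to 4.17% of the longest. Only 1, 1, 5, 7 and 7 regions of these bins had Su(Hw) in all 3 control libraries. Regions widen with the gap, and whether width bears on the calls of any protein was not tested. Gaps of 100 to 199 bp also held the DRE least often (18.2%, against 21.7% to 25.8% in the others) and GAGAGAG most often (9.80%, against 2.26% to 4.20%), and whether base composition or motifs bear on the calls was not tested.

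**Figure D3:**
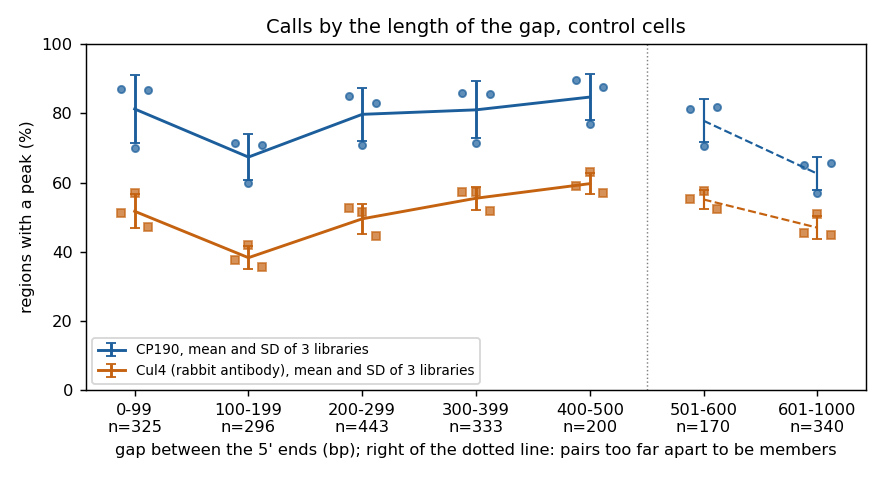
Percent of regions with a CP190 (blue) or rabbit Cul4 peak (orange) by gap length in control cells, with points for 3 libraries, and the mean and SD as lines with error bars. Right of the dotted line are pairs with gaps over 500 and up to 1000 bp, which are not members. Both proteins dip at gaps of 100 to 199 bp (67.3% and 38.3%), and CP190 is lower beyond the limit (77.8% and 62.5%).

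The 5 pairs nearest each side of the limit had similar CP190 and rabbit Cul4 calls. The 5 pairs nearest inside it were Meics/ssp2 (gap 500 bp), Plzf/PLCXD, Snap24/CG8478 and su(Hw)/Polr2I (499 bp each) and Ir75c/Grd (498 bp), and CP190 was called in all 3 control libraries at all of them except Ir75c/Grd. The 5 nearest outside were CG16868/CG34199 and CG10344/ppk12 (1 bp over the limit), CG6409/galla-2 and Cyp9f2/CG5167 (503 bp) and fipi/CG3294 (504 bp), with CP190 at all except Cyp9f2/CG5167. Rabbit Cul4 was called in all 3 control libraries at 1 pair of each set. As a class the wide pairs, whose regions are wider, differed more in control cells. Su(Hw) was called at 4.90% of them against 1.44% of divergent regions, and mouse Cul4 at 6.34% against 1.34%.

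Motifs were searched on both strands in the 500 bp around the centre of each region, and a match is a description of the sequence only. The DRE was found in 23.0% of divergent regions, 6.49% of single promoters and 9.67% of all promoter regions. The M1BP motif was found in 21.0%, 5.13% and 7.96% of them. The E-box CAGCTG followed the same order (33.6%, 21.4% and 23.4%), and TATAAA differed little (62.6%, 59.0% and 60.3%). GAGAGAG was less frequent at divergent regions than at single promoters as a whole (4.51%, 9.58% and 8.11%). A CTCF-like motif, AGNNGGCGC, stood at 4.01%, 4.58% and 4.43%, and the Su(Hw) motif, with at most 1 mismatch, at 3.57%, 4.01% and 3.95%. Compact single promoters held GAGAGAG as seldom as divergent regions (4.51%). Their shares with the DRE (10.8%) and the M1BP motif (9.62%) lay between those of all single promoters and divergent regions.

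CP190 occupancy went with these motifs less steeply at divergent regions than at single promoters. In control cells CP190 was called at 94.3% ± 6.5 of divergent regions with the M1BP motif and 74.4% ± 8.3 without it, but at 84.5% ± 5.3 and 24.7% ± 3.0 of single promoters (SD, n = 3). For the DRE the values were 87.4% ± 9.8 and 76.0% ± 7.3 at divergent regions, and 71.0% ± 7.0 and 24.8% ± 2.8 at single promoters. Cul4 was called at 67.9% ± 4.9 of divergent regions with and 45.7% ± 3.3 without the M1BP motif, and at 53.0% ± 4.1 with and 49.6% ± 3.5 without the DRE. Divergent regions with neither motif still had CP190 in all 3 control libraries in 62.2%, against 18.8% of single promoters with neither, and Cul4 in 36.1% against 12.7%. Su(Hw) was called in all 3 control libraries at 5.26% of the divergent regions with its motif (3 of 57) and 1.17% of those without.

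**Figure D4:**
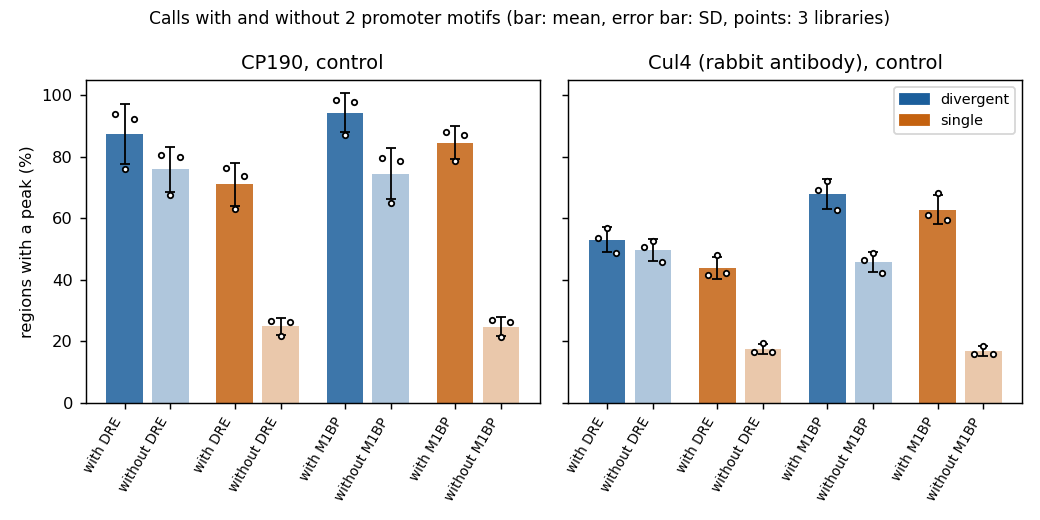
Percent of divergent regions (blue) and single promoters (orange) with a CP190 (left) or rabbit Cul4 peak (right) in control cells, with (dark) and without (pale) the DRE or the M1BP motif. Bars are means, error bars SD and points the 3 libraries. At divergent regions CP190 stands at 76.0% without the DRE and 74.4% without the M1BP motif, where single promoters stand at 24.8% and 24.7%.

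Named pairs show the range of these values, each with the fold enrichment of the peak at its summit over local background in replicates 1, 2 and 3. The strongest Cul4 call was at CG32638/CG15717, with 18.4, 11.9 and 16.3 in control cells, next to CG17068/Rab10 with 13.5, 9.72 and 13.2. Rab10 is a small GTPase of vesicle traffic. In both the Cul4 summit lay beyond the region, 602 bp into CG32638 and 616 bp into Rab10, while the CP190 summit lay in the gap. The strongest CP190 calls were at Pldn/CG14135 (17.6, 18.5 and 17.4) and Secp43/ND-B8 (18.2, 17.8 and 16.9), which encode a subunit of a complex for lysosome-related organelles (Pldn) and a subunit of respiratory complex I (ND-B8). Neither pair had a Cul4 call in any rabbit library. The strongest Su(Hw) call was at CG8197/ana (16.1, 16.3 and 15.9), where ana encodes a secreted glycoprotein that holds back neuroblast division.

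Of 25 insulator genes, 10 lay in divergent pairs (9 regions, since Ibf1 and Ibf2, the partners that bind DNA for CP190, form 1 pair). CP190 was called in all 3 control libraries at 8 of these 9 (88.9%, against 69.5% of all divergent regions) and Cul4 at 4 (44.4%, against 41.2% of all divergent regions). At its own gene, Cp190/CG4338, CP190 had fold values of 4.35, 3.31 and 3.85, below the 10.1, 8.29 and 9.88 at Ibf2/Ibf1. The exception was M1BP/CG8202, with a CP190 call of 2.76 in replicate 1 alone. Cul4 was called at Chro/Ssl1, CG12974/pzg, Nup98-96/mbc and l(3)mbt/CG5934, and at Chro, which encodes a chromodomain protein of interbands, it measured 3.83, 3.67 and 5.23.

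Of 52 genes of the ubiquitin and cullin list, 26 lay in divergent pairs, with CP190 in all 3 control libraries at 22 of the 26 regions (84.6%, against 69.5% of all divergent regions) and Cul4 at 17 (65.4%, against 41.2%). The gene for Cul4 itself shares its gap with udd, a gene for RNA polymerase I transcription, and had no rabbit Cul4 call in control cells, while CP190 measured 4.13 and 4.04 in replicates 1 and 3. eff shares its gap with jvl and had CP190 at 8.17, 5.98 and 6.76, and Cul4 at 3.84 and 4.88 in replicates 1 and 3. slmb/CG5793, whose slmb encodes the F-box protein of a cullin-1 ligase, had both, with Cul4 at 5.41, 4.25 and 5.16. Hmt4-20/SkpA, with the linker subunit SkpA of the same ligases, had CP190 at 12.4, 11.3 and 11.4 and Cul4 at 3.43, 2.63 and 4.10.

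Other lists differed in how often their genes were paired. In the most often paired lists, 59.4% of 32 tRNA synthetase genes, 56.5% of 23 nuclear pore genes, 54% of 50 Mediator and TFIID genes and 50% of 8 chaperonin genes lay in divergent pairs, against 22.9% of all protein-coding genes. Proteasome genes stood at 39.6% of 48, respiratory chain genes at 34.5% of 87, translation initiation factors at 31.8% of 44, cell cycle and replication genes at 30.8% of 52 and heat shock genes at 19.0% of 21. Hemocyte genes (8.70% of 23), odorant and gustatory receptors (8.40% of 119) and cuticle genes (3.26% of 92) were seldom paired. Against 69.5% of all divergent regions, CP190 in all 3 control libraries covered 17 of the 26 Mediator and TFIID regions, 14 of 19 tRNA synthetase regions, 9 of 13 nuclear pore regions, 14 of 19 proteasome regions, 25 of 30 respiratory chain regions, 10 of 14 initiation factor regions, 13 of 16 cell cycle regions, 3 of 4 heat shock regions, 4 of 4 chaperonin regions, 3 of 8 receptor regions and 1 of 2 cuticle regions. Cul4 covered 11, 9, 5, 11, 14, 7, 7, 3, 1, 2 and 0 of the same regions, against 41.2% of all divergent regions. Both hemocyte regions, crq/shv and dome/Ubqn, had both proteins, as did both regions with genes shown in the study's browser views, CG5390/CG4968 and Pgant5/CG5828.

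After eff knockdown, Cul4 calls fell at divergent promoters in every library, but by very different amounts. The 3 libraries called 27.6%, 2.07% and 0.814% of the divergent regions, against 46.4% to 53.5% in control cells. The mean change was -40.2 points (exact permutation p = 0.1, which 3 against 3 libraries cannot go below, adjusted over 6 comparisons p = 0.3). At single promoters the same libraries called 14.6%, 2.24% and 1.45%, so that the ratio of divergent to single fell from 2.83, 2.53 and 2.56 in control cells to 1.89, 0.92 and 0.56. The groups did not overlap in any of these measures. The lists held 4447, 5355 and 4469 peaks in control cells and 4488, 571 and 424 after eff knockdown, so that replicates 2 and 3 had short lists, while replicate 1 called fewer divergent regions from a list of control length. The background of reads implied by the weakest peaks, a guide to depth, was 4.54 in replicate 3 after knockdown, the lowest of all libraries, and 33.5 in replicate 1, the highest. The part of depth in the result was not tested.

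Of the 658 divergent regions with Cul4 in all 3 control libraries, 291 (44.2%) had no call in any eff knockdown library. The share lost was 33.7% of all promoter regions, 29.1% of single promoters and 33.8% of compact single promoters. At the wide pairs it was lower still, at 22.0% (50 of 227), so the greater loss was not common to all head-to-head pairs. Only 9 of the 658 divergent regions were called in all 6 libraries. Of 653 divergent regions uncalled in control cells, 0 were called in all 3 knockdown libraries, against 0% of all promoter regions. Replicate 1 decided the count, since without it 622 regions were lost, and without replicate 3 the regions called throughout numbered 33. In the retained share, the percent of regions found in a given pair of control libraries that were found again in the library in question, the knockdown libraries stood at 53.4%, 4.66% and 1.74% of divergent regions and 68.9%, 13.0% and 7.57% of single promoters. All 3 retained less at divergent regions, and the difference between classes shifted by -8.38 points from control cells (exact permutation p = 0.1).

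Because divergent regions had weaker Cul4 peaks, the retained share was also compared within 4 equal classes of control strength, a comparison chosen after seeing the data. Divergent regions retained less in all 4 classes and in 3 of 3 libraries of each, with mean differences of -8.66, -6.04, -4.75 and -11.2 points from the weakest to the strongest class. The loss was much the same with CP190 (44.1% of 626) as without it (46.9% of 32), and with the M1BP motif (43.5% of 193) as without (44.5% of 465). By gap length it ran from 29.4% of pairs with 400 to 500 bp to 58.4% of pairs with 200 to 299 bp, and by chromosome arm it was 59.3% on 2L and 36.7% to 44.0% on the other large arms.

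**Figure D5:**
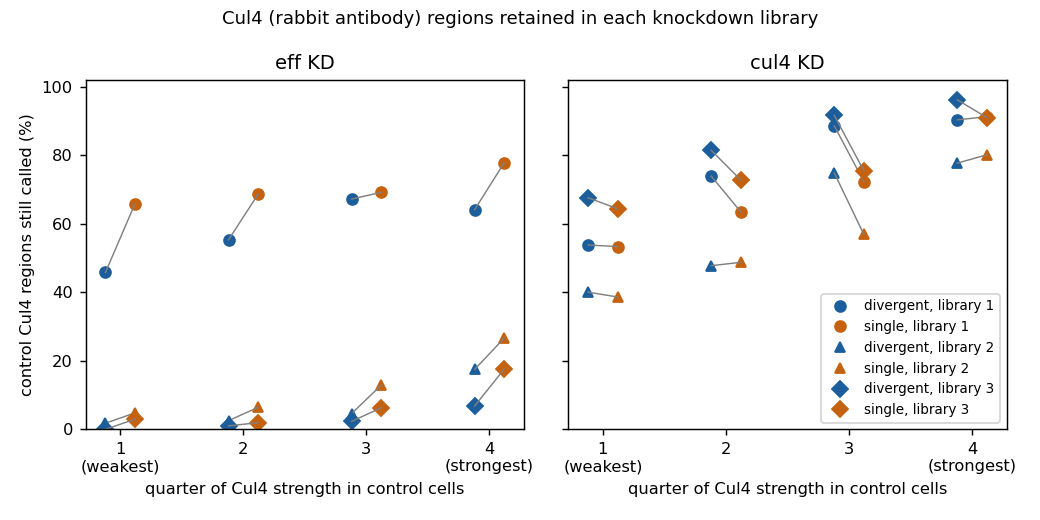
Percent of rabbit Cul4 regions of control cells that were still called in each eff (left) or cul4 (right) knockdown library, for divergent regions (blue) and single promoters (orange), by 4 classes of control strength; grey lines join the classes within a library. After eff knockdown the divergent points lie below the single ones in all 12 comparisons, and after cul4 knockdown the mean difference of divergent from single is 1.69, 6.03, 16.8 and 0.60 points from the weakest to the strongest class, and in the strongest class divergent points lie below single ones in 2 of 3 libraries.

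The strongest regions to lose Cul4 after eff knockdown were CG9154/Kr-h2 (control fold 9.20, 9.29 and 8.16) and Ino80/Aptx (7.65, 7.25 and 6.79), where Ino80 is the ATPase of a chromatin remodelling complex and Aptx a DNA repair enzyme. They were followed by CG7997/Nup62, Mic26-27/CG5916 and ck/CG33679. None of the 5 had a Cul4 peak in any eff knockdown library, and all 5 kept Cul4 in the 3 cul4 knockdown libraries and CP190 in all 9. At CG32638/CG15717 the Cul4 fold fell from 18.4, 11.9 and 16.3 to 4.53 and 3.36 in replicates 1 and 2, with no call in replicate 3. Ugt316A1/Sfxn2, which also had Su(Hw), was called throughout, at 12.2, 8.72 and 13.2 in control cells and 5.35, 5.49 and 11.2 after eff knockdown.

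Fold enrichment could be compared only where all 6 libraries had a call, with values centred on the median of each library and limma fitted over all such promoter regions. For Cul4 after eff knockdown this left 9 divergent regions, of which 0 were lower (0 also at an unadjusted p under 0.05, against 23.1% of all promoter regions) and 1 was higher (against 13.2% of all). The 1 region was Rala/Tlk, at 4.33, 4.29 and 5.17 in control cells and 6.40, 2.81 and 10.6 after knockdown (log2 change 0.85, SE 0.24, limma adjusted p = 0.0098). The 2 groups overlapped in these raw values, and without centring or under quantile normalization the region was not called.

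Depletion of Cul4 itself also lowered the number of Cul4 calls at divergent promoters. The 3 cul4 knockdown libraries called 32.7%, 24.3% and 39.5% of divergent regions, below every control library (mean change -18.2 points, exact permutation p = 0.1). With lists of equal length the change was 1.90 points in the other direction, and the lists themselves were shorter, at 3037, 2378 and 3431 peaks. Single promoters fell in proportion, and the ratio of divergent to single was 2.65 ± 0.16 after knockdown and 2.64 ± 0.17 in control cells (SD, n = 3). The difference in percent called between the classes narrowed by 11.2 points (mean change -11.2, exact permutation p = 0.1), and widened by 2.71 points at equal list length.

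Of the 658 regions, 99 (15.0%) lost Cul4 after cul4 knockdown, against 17.9% of all promoter regions, and 347 kept it in all 6 libraries. Without replicate 3 of the knockdown the lost regions numbered 167. Of 653 regions with no call in control cells, 0 were gained, against 0.0471% of all promoter regions. The retained share was 68.8%, 52.2% and 77.7% at divergent regions and 68.7%, 55.2% and 74.3% at single promoters, and the difference between the classes moved by 1.57 points (exact permutation p = 0.6). Divergent regions therefore did not lose Cul4 calls beyond single promoters under this treatment in a way these libraries could show.

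The strongest regions to lose Cul4 after cul4 knockdown were Nnf1a/HnRNP-K, UBL3/CG15914, Upf2/CG1571, vap/CG12698 and CG17162/su(f). Nnf1a is a kinetochore protein, HnRNP-K an RNA-binding protein, Upf2 a factor of nonsense-mediated decay and vap a Ras GTPase-activating protein. Their control fold values were moderate, from 4.11 to 5.73. All except Upf2/CG1571, called at 2.69 in replicate 1, were also without Cul4 in every eff knockdown library.

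Among the 347 kept regions, limma called 29 lower (8.36%, against 13.2% of all promoter regions) and 49 higher (14.1%, against 10.7% of all). Without centring the higher calls were 28, and they were 29 without control replicate 3 and 30 without knockdown replicate 2. CG1998/Set2, with the histone methyltransferase gene Set2, rose from 3.41, 3.54 and 3.47 to 5.42, 5.85 and 5.83 (log2 change 0.73, SE 0.14, limma adjusted p = 2.1e-05). CG10863/CG14982 (log2 0.72) and Top3beta/wuho (log2 0.66) were next, and in all 3 the groups did not overlap. The largest decreases were at Ttc7/bin3 (log2 change -0.89), RN-tre/mam (-0.75) and Dpit47/Adf1 (-0.74). At Dpit47/Adf1 the Cul4 summit of control cells lay 862 bp into Adf1 and so outside the region. Uch/CG34174, with a ubiquitin hydrolase gene, fell from at least 5.28 in each control library to 3.91, 4.36 and 3.99 (log2 change -0.47, SE 0.14, limma adjusted p = 0.0079).

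CP190 stayed at divergent promoters in both knockdowns. After eff knockdown 79.6%, 78.5% and 76.6% of divergent regions were called (mean change -0.33 points, exact permutation p = 1), and after cul4 knockdown 80.0%, 73.7% and 59.1% (mean change -7.66 points, exact permutation p = 0.5). The lowest value came from cul4 replicate 3, which had the shortest CP190 list (6496 peaks) and an implied background of 6.25 reads. Of the 1110 regions, 2 were lost after eff knockdown (0.18%, against 0.661% of all promoter regions) and 1098 were called throughout. After cul4 knockdown 3 were lost (0.27%, against 1.5% of all) and 899 were called throughout. Without control replicate 2 the lost regions were 37 of a larger set after eff and 47 after cul4 knockdown, and without cul4 replicate 1 they were 29. Of 256 regions with no call in control cells, 0 were gained in either knockdown, against 0.0143% of all promoter regions after eff and 0% after cul4 knockdown.

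The retained share of CP190 was higher at divergent regions than at single promoters in each eff knockdown library, at 98.6%, 97.9% and 97.1% against 95.8%, 95.0% and 94.0%. The difference moved by 2.86 points from control cells (exact permutation p = 0.1), and within classes of control strength divergent regions exceeded single promoters by 8.17 points in the weakest class and by at most 1.14 points in the others. After cul4 knockdown the difference between classes moved by 2.51 points (exact permutation p = 0.4), and 1 of the 3 libraries retained less at divergent regions. Control replicates 1 and 3 stood at 100% in both classes, because the promoter calls of control replicate 2 all lie within theirs. The control spread was largely set by this nesting, so neither p-value can weigh the move from control cells.

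The pair CG17162/su(f), where su(f) encodes a protein of mRNA 3′ end formation, was the only divergent region that lost CP190 in both knockdowns and Cul4 in both. Its CP190 fold was 5.03, 3.47 and 3.82 in control cells, with no call in the 6 knockdown libraries, and its Cul4 fold was 4.50, 4.11 and 4.61. The CP190 values lay below the median fold of their control lists (7.27, 6.53 and 6.93). The Cul4 values lay above the median of theirs (3.76, 3.65 and 4.07). The other region lost after eff knockdown was cm/sloth1 (3.72, 3.49 and 3.49), and those lost after cul4 knockdown were piwi/CG12253 (4.19, 3.04 and 3.77) and Ing5/CG7099 (3.80, 2.83 and 3.28). piwi encodes a small-RNA-guided silencing protein that is best known from the germline.

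The fold enrichment of CP190 changed more often upwards than downwards at divergent regions. After eff knockdown, limma called 237 of the 1098 regions higher (21.6%, against 13.4% of all promoter regions) and 151 lower (13.8%, against 19.4% of all), with a median log2 change of 0.05, against -0.09 at single promoters. Without centring, which raised the median log2 change of all promoter regions from -0.04 to 0.16, they were 331 and 21, and under quantile normalization 368 and 104. Without control replicate 3 they were 138 and 74, and without eff replicate 1 they were 153 and 98. The difference in median log2 fold between the classes went from -0.47 ± 0.072 in control cells to -0.37 ± 0.052 after knockdown (exact permutation p = 0.2), so the shift between classes did not exceed the spread between libraries.

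After cul4 knockdown, limma called 116 of 899 regions higher (12.9%, against 8% of all promoter regions) and 41 lower (4.56%, against 8.5% of all). Without centring, which moved the median of all promoter regions from 0.03 to 0.30, they were 244 and 2, and under quantile normalization 196 and 65. These counts rested on single libraries. Without control replicate 1, 2 or 3 the higher calls were 3, 8 and 0 and the lower calls 4, 7 and 1, without cul4 replicate 2 they were 2 and 1, without replicate 1 they were 215 and 94, and without replicate 3 they were 154 and 74.

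The largest CP190 increase after eff knockdown was at MtnA/CG8500, with the metallothionein gene MtnA. The fold rose from 6.60, 7.87 and 7.51 to 16.2, 16.4 and 16.8 (log2 change 0.98, SE 0.15, limma adjusted p = 0.00081), and after cul4 knockdown it was 11.4, 18.6 and 28.3. DAAM/fs(1)N, with the formin gene DAAM, rose from 8.20, 9.51 and 8.65 to 18.2, 21.5 and 19.5 (log2 change 0.98, SE 0.16, limma adjusted p = 0.0012), and CG17816/ArgRS-m from 8.08, 8.36 and 7.76 to 16.3, 15.0 and 19.1 (log2 change 0.86, SE 0.15, limma adjusted p = 0.0013). In all 3 the groups did not overlap. At CG17816/ArgRS-m the CP190 summit of control cells lay 406 bp into CG17816 and so outside the region. After cul4 knockdown the largest increases were at CG17816/ArgRS-m (17.1, 24.4 and 29.5, log2 change 1.24), DAAM/fs(1)N (15.8, 25.4 and 34.9, log2 change 1.18) and CG1998/Set2 (14.5, 20.9 and 29.4, log2 change 1.17), with the highest value in replicate 3, the CP190 library with the lowest implied background, each time.

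CP190 fell most after eff knockdown at S1P/CG11307, with the gene of a membrane-bound protease, from 9.68, 6.51 and 7.54 to 4.48, 4.58 and 4.55 (log2 change -0.97, SE 0.092, limma adjusted p = 8.5e-05). PGRP-LE/sd, with a peptidoglycan receptor and the partner of Yorkie, sd, fell from 8.38, 6.02 and 7.29 to 3.85, 3.98 and 4.82 (log2 change -0.96, SE 0.11, limma adjusted p = 0.00017). After cul4 knockdown the largest decrease was at vap/CG12698, from 10.5, 7.98 and 8.91 to 4.53, 5.21 and 6.26 (log2 change -1.06, SE 0.10, limma adjusted p = 0.0027), and this pair had also lost its Cul4 calls. At eff/jvl, the promoter of the depleted gene, CP190 rose after eff knockdown from 8.17, 5.98 and 6.76 to 10.6, 11.8 and 8.55 (log2 change 0.37, SE 0.11, limma adjusted p = 0.022), and it was also higher after cul4 knockdown, at 10.1, 12.4 and 13.3 (log2 change 0.50, SE 0.099, limma adjusted p = 0.017). Both comparisons share the control libraries. Without control replicate 3, limma called 0 divergent regions higher and 1 lower after cul4 knockdown, so that call at eff/jvl did not hold.

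Su(Hw) was present at too few divergent promoters for firm statements about the class. After eff knockdown 0 of 21 regions were lost, against 0.952% of all promoter regions, and after cul4 knockdown 1 was lost (4.76%, against 9.76% of all). That region was CG43209/Eglp1, where the Su(Hw) summit lay 550 bp into CG43209 and outside the region, and with summits required inside it 0 were lost. None of 1572 regions without a call in control cells was gained, against 0.0252% of all promoter regions after eff and 0.00841% after cul4 knockdown. Of 20 regions called in all 6 libraries, limma called 7 higher and 2 lower after eff knockdown (against 16.1% and 16.4% of all promoter regions) and 4 higher and 1 lower after cul4 knockdown (against 12.7% and 14.5% of all).

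One of these was the promoter of su(Hw) itself, which it shares with Polr2I, a subunit gene of RNA polymerase II. Su(Hw) fold there was 9.61, 7.42 and 8.70 in control cells, 21.4, 15.0 and 10.1 after eff knockdown (log2 change 0.70, SE 0.13, limma adjusted p = 0.00056) and 15.7, 20.5 and 9.15 after cul4 knockdown (log2 change 0.70, SE 0.15, limma adjusted p = 0.011). The first treatment did not overlap with control cells and the second did. CG17816/ArgRS-m rose in both (log2 change 0.91 and 1.03), as it did for CP190, and Aldh7A1/CG14085 fell in both (log2 change -0.47 and -0.60). At CG17816/ArgRS-m the Su(Hw) summit of control cells lay 384 bp into CG17816, also outside the region. The control libraries are shared by both knockdown comparisons, so these pairs of values are not independent of each other.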

How the data were processed

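ChIP-seq libraries of Kc167 cells were represented by 30 peak lists, 1 per library, and 9 input libraries have no list here. Per the submitters' processing notes, cutadapt 3.4, Bowtie2 2.4.2, SAMtools 1.12, Picard and MACS2 2.2.7.1 were used with the dm6 build. The authors called peaks per library. The deposited values are fold enrichment at the summit (a ratio to local background), −log10 p and −log10 q values, and a score. They hold no reads, so no count test was run. Depth is known only from the low end of the background reads that fold and p imply (4.54 to 33.5 per library). List lengths ran from 424 to 9149 peaks. The number of peaks and the fold of a peak both depend on depth.

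Genes came from the Ensembl annotation of the same assembly, whose chromosome lengths were checked. The fold of a region was the highest of the peaks that overlapped it by at least 1 bp. Lost regions were called in all 3 control libraries and in none of the knockdown libraries, and gained regions the reverse. Shares were compared by exact two-sided permutation or sign-flip tests over libraries (Python 3.11.15), and log2 fold, centred on each library's median, by limma 3.58.1 in R 4.3.3 with Benjamini-Hochberg adjustment at 0.05 over all promoter regions called in all 6 libraries. The scripts were tested on simulated data.

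Regions named were the 5 strongest per protein, up to 5 lost, gained, higher and lower per comparison, those with genes of the insulator, ubiquitin and cullin, hemocyte and browser-view lists, and the 5 nearest each side of the 500 bp limit. Members and lists were chosen with earlier results of these data known. Replicate numbers showed no sign of pairing the samples, and the main tests treated them as unpaired. Alternatives were lists of equal length, −log10 q of at least 20, other overlaps and windows, other scalings, a replicate block and leaving out each library. Per-sample columns of other series numbered 0.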

Additional observations from a re-analysis of the deposited data

How the results depend on the processing

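The CP190 and Su(Hw) differences from single promoters kept their direction and call under every alternative run. Peak lists of unequal depth limit all counts of lost and gained regions, and 3 against 3 libraries cannot pass an exact two-sided permutation p of 0.1. The causes of the changes below were not tested.

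With lists of equal length, Cul4 against single promoters gave 0.21 points (exact permutation p = 0.34). The change in percent called was 1.90 for Cul4 after cul4, 1.75 for CP190 after eff, 0.0626 for Su(Hw) after eff and 0.0417 for Su(Hw) after cul4 knockdown, and the change in the class difference was 2.71 for Cul4 and 1.37 for CP190 after cul4 knockdown. Lost, gained and kept regions were 9, 1 and 4 for Cul4 after eff and 17, 20 and 190 after cul4 knockdown. CP190 lost 5 and gained 11 after eff, and lost 11 and gained 19 after cul4 knockdown, and Su(Hw) gained 1 in each.

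With −log10 q of at least 20, Cul4 kept 2 regions after eff and lost 61 after cul4 knockdown with 19 lower in limma, and CP190 lost 1 in each. With lost and gained defined by a difference of at least 2 libraries, the lost regions were 741 and 281 for Cul4 after eff and cul4 knockdown, 40 and 73 for CP190 and 1 and 2 for Su(Hw), and the gained were 2 for Cul4 after cul4, 1 for CP190 after eff and 2 for CP190 after cul4 knockdown. With summits required inside the region, 3 were gained for Cul4 after cul4 and 1 for CP190 in each knockdown, the Su(Hw) retained share changed by 0 in both and 0 Su(Hw) regions were lost after cul4 knockdown. With an overlap of at least 50% the Su(Hw) retained share changed by 0 in both and 0 were lost. In a window of 500 bp the Su(Hw) class difference after eff knockdown moved by -0.00995, its retained share by 0, and 0 were lost after cul4 knockdown.

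Without centring, limma gave 2 lower and 0 higher for Cul4 after eff, 28 higher for Cul4 after cul4, 21 lower for CP190 after eff, 2 lower and 244 higher for CP190 after cul4, 0 lower for Su(Hw) after eff and 0 lower and 2 higher for Su(Hw) after cul4 knockdown. Under quantile normalization it gave 0 higher for Cul4 after eff, 368 higher for CP190 after eff, and 65 lower and 196 higher for CP190 after cul4 knockdown. The replicate block gave 146 lower and 242 higher for CP190 after eff, 48 and 146 after cul4 knockdown, 28 and 45 for Cul4 after cul4 and 0 and 1 after eff knockdown. Deviations of libraries with the same number correlated between -0.22 and 0.32, and those with different numbers between -0.41 and 0.33. With 3 libraries per group this cannot decide whether the numbers pair the samples, which the main tests treated as unpaired.

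Leaving out 1 library at a time, the differences from single promoters ran from 49.7 to 51.6 points for CP190, 16.6 to 20.9 for Cul4, -2.53 to -2.39 for Su(Hw) and -2.12 to -1.89 for mouse Cul4. In the comparisons CP190 after cul4, CP190 after eff, Cul4 after cul4, Cul4 after eff, Su(Hw) after cul4 and Su(Hw) after eff knockdown, in that order, the change in percent called ran from -12.2 to -1.74, -4.88 to 2.19, -21.9 to -14.3, -48.9 to -35.6, -0.209 to -0.115 and -0.104 to 0. The change in the class difference ran from -6.47 to 0.86, -1.15 to 3.09, -13.9 to -8.39, -31.7 to -24.9, 0.518 to 0.713 and -0.152 to 0.138. The change in the retained share ran from -14.0 to 1.74, -5.08 to 4.90, -32.4 to -19.7, -89.7 to -63.8, -9.72 to -3.08 and -3.47 to 1.19, and in its class difference from 1.14 to 4.10, 2.78 to 5.28, -0.66 to 3.16, -10.4 to -5.59, 8.82 to 13.7 and 2.23 to 5.62. Lost regions ran from 3 to 47, 2 to 37, 103 to 167, 291 to 622, 1 to 2 and 0 to 1, and limma's higher calls from 0 to 215, 138 to 287, 29 to 51, 0 to 8, 4 to 4 and 5 to 7 and its lower calls from 1 to 94, 74 to 156, 21 to 32, 0 to 7, 1 to 2 and 1 to 2. Kept regions ran from 899 to 1078, 1098 to 1208, 347 to 455, 9 to 33 and, for Su(Hw) after eff knockdown, 20 to 21, and gained regions from 0 to 1 for CP190 in each knockdown and 0 to 2 for Cul4 after cul4 knockdown.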
